A study of Mus musculus with 9 samples.

Results

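The transcripts described here are those of 9 genes of the Notch pathway, the receptors Notch1, Notch2, Notch3 and Notch4 and the mediators Rbpj, Maml2, Hes1, Hes6 and Dtx1, taken by gene name from a table of read counts for 39179 genes. They were measured by bulk RNA sequencing of poly-A RNA from 3 dendritic cell (DC) subsets sorted from the spleens of unstimulated C57BL/6J mice, labelled CD8pos cDC1, CD8neg cDC2 and pDC. The cDC1 and cDC2 are the conventional DC that present antigen to T cells, and the pDC are plasmacytoid DC, the cells known for type I interferon. No group carried a transgene, a deletion or a treatment, and the labels give neither age nor sex. Each subset had 3 libraries, and each replicate was a separate pool of 15 to 17 mice, so that the p-values below measure the spread between pools and not between single mice. Light-density spleen cells had been depleted with antibodies to surface markers of other lineages, CD3, Thy-1, Ly6G/Ly6C and TER-119 among them, before the sort on CD11c, CD45RA, CD8, CD11b and CD49b.

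Notch receptors are cell surface proteins that are cut when a ligand of the Delta-like or Jagged family on a neighbouring cell binds them. ADAM proteases and then γ-secretase release the intracellular part, which enters the nucleus, joins the DNA-binding protein RBPJ and a Mastermind-like coactivator such as MAML2, and turns on genes that include those of the HES repressors. DTX1 is a Deltex E3 ubiquitin ligase that acts on Notch trafficking and is itself a known Notch target. In the mouse spleen, Notch2 and RBPJ are known for their role in the ESAM-bearing cDC2 of the marginal zone. In the DNA-bound state without a Notch fragment, RBPJ recruits corepressors instead.

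Total counts on genes ranged from 15806597 to 32453789 per library, with replicate 3 the shallowest of each subset, and 3 counts corresponded to 0.0908 to 0.203 CPM (counts relative to library size, scaled by edgeR's TMM factors), so that levels near or under this cannot be told from 0. The labels were checked against defining markers. The cDC1 gene Xcr1 lay between 929 and 947 CPM in cDC1 and at most at 64.9 CPM elsewhere, the cDC2 gene Clec4a4 between 147 and 188 CPM in cDC2 and at most at 5.86 CPM elsewhere, and the pDC gene Siglech between 4330 and 5110 CPM in pDC and at most at 33.9 CPM elsewhere. Not every listed identity gene was highest in its own subset. Cd4 and Cd209a of the cDC2 list were higher in pDC (means 1368.5 and 545.93 CPM) than in cDC2 (399.41 and 254.62 CPM). The sum of the 6 cDC2 genes was also higher in pDC (mean 2499.9 CPM) than in cDC2 (2086.2 CPM). Irf8 of the cDC1 list was higher in pDC (mean 4243.7 CPM) than in cDC1 (2556.3 CPM). All other genes of these lists and of the pDC list had their highest mean in their own subset. Replicate 3 stood apart in every subset by a list of 10 immediate-early and heat-shock genes, whose summed level was 3990 to 6180 CPM there and 1565 to 3433 CPM in replicates 1 and 2. The part of these genes in the results was not tested, and calls on the 9 genes that change without replicate 3 in all subsets are given beside their values.

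All 9 genes passed the filter on low counts, and a test for any difference over the subsets called each of them at the 0.05 threshold, as it did 56% of the 13819 genes tested. In pDC against cDC1, 8 of 9 passed (4 higher and 4 lower in pDC), where 48.6% of all genes did (24.3% higher, 24.4% lower). In pDC against cDC2, all 9 passed (4 higher and 5 lower), where 45.8% of all genes did (22.5% higher, 23.3% lower). In cDC2 against cDC1, 5 of 9 passed (1 higher and 4 lower), where 24.4% of all genes did (12.7% higher, 11.7% lower); scaling by library size alone moved the median of all genes in this comparison by 0.11 on the log2 scale and its called genes from 1760 higher and 1610 lower to 2204 higher and 1287 lower. The 3 comparisons share libraries and are not independent of each other. The median absolute log2 fold change of the 9 genes was 0.77 in cDC2 against cDC1, 1.98 in pDC against cDC1 and 3.36 in pDC against cDC2, against 0.36, 0.63 and 0.59 over all genes tested. In sorted bulk RNA a lower level in fewer cells and a lower level in every cell cannot be told apart.

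**Figure D1:**
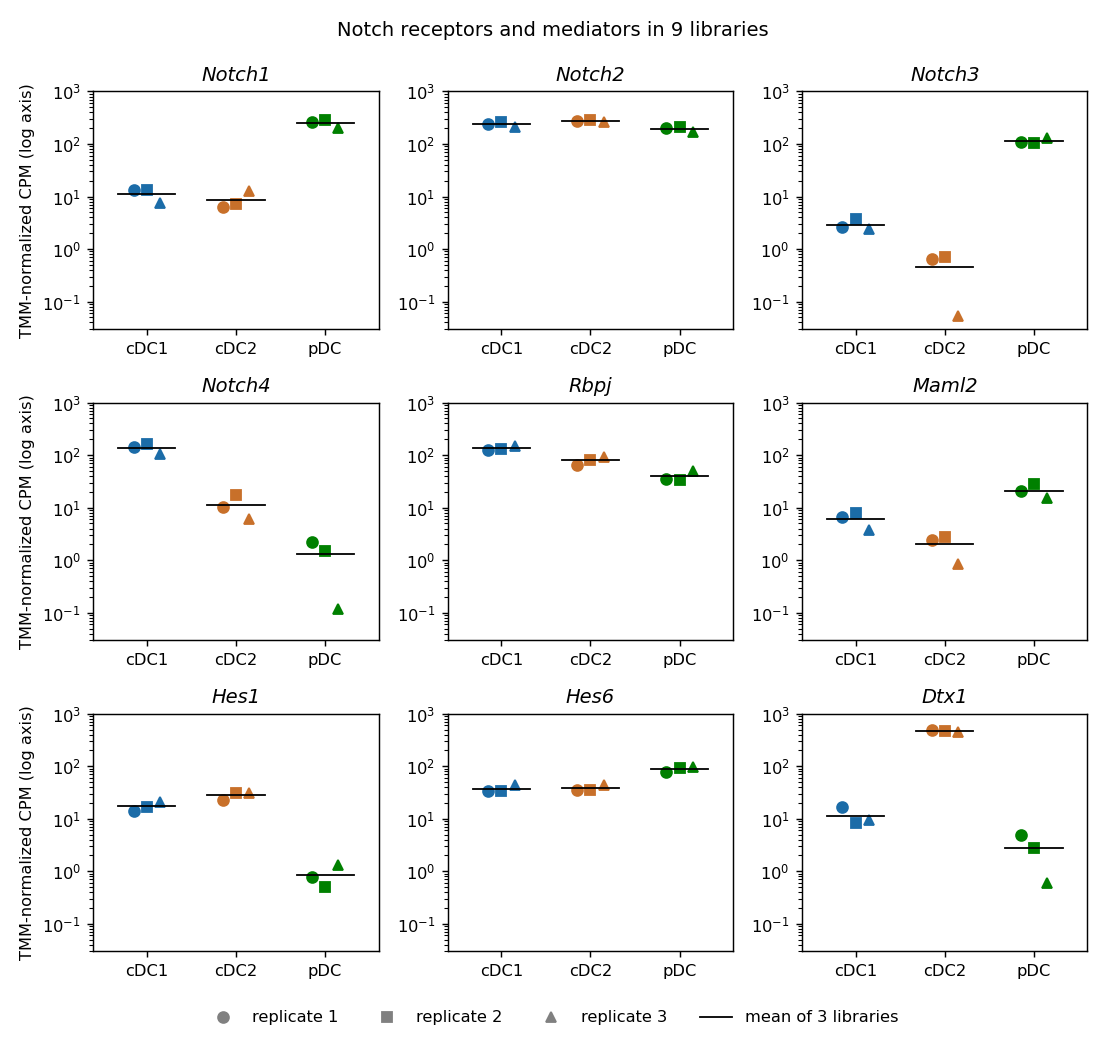
TMM-normalized CPM (log axis) of the 9 genes in each library, by subset, with a symbol for each replicate number and a line at the mean of 3 libraries. Notch1, Notch3, Hes6 and Maml2 were highest in pDC, Notch4 and Rbpj in cDC1, and Dtx1 in cDC2, where its 3 libraries lay between 446 and 491 CPM.

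Each subset had its own set of receptor transcripts. Notch1 and Notch3 were pDC transcripts, Notch4 was a cDC1 transcript, and Notch2 was abundant in all 3 subsets, with at most a 1.42-fold difference between fitted levels.

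Notch1 (ENSMUSG00000026923, chr2:26457903-26516663, minus strand, 34 exons in its principal transcript; GRCm38, GENCODE M21) was at 257, 281 and 199 CPM in pDC replicates 1 to 3. It was at 13.0, 13.3 and 7.45 CPM in cDC1 and at 6.18, 7.32 and 12.8 CPM in cDC2. Every pDC library was thus far above every cDC library, while the cDC1 and cDC2 libraries overlapped. The log2 fold change was 4.43 ± 0.326 (SE, n = 3 per subset; adjusted p = 2.99e-06, edgeR) in pDC against cDC1, a 21.6-fold higher level, and 4.82 ± 0.333 (adjusted p = 2.16e-06) in pDC against cDC2. Between cDC2 and cDC1 the difference of -0.39 ± 0.299 did not pass (adjusted p = 0.413); replicate 3 went the opposite way from replicates 1 and 2, and without replicate 3 in all subsets the difference was -0.999 (adjusted p = 0.000593). Genes annotated on the opposite strand overlap 10.4% of the Notch1 exon bases, and their highest level in any library was 0.53 CPM.

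Notch3 (ENSMUSG00000038146, chr17:32120820-32166852, minus strand, 33 exons) was at 109, 106 and 131 CPM in pDC, at 2.66, 3.71 and 2.37 CPM in cDC1 and at 0.637, 0.700 and 0.0532 CPM in cDC2. The 3 subsets did not overlap, and the lowest cDC2 value was 1 read in replicate 3. Against cDC1, pDC were higher by 5.29 ± 0.358 on the log2 scale (adjusted p = 1.74e-06), and against cDC2 by 7.82 ± 0.422 (adjusted p = 4.40e-07). The difference between cDC2 and cDC1 was -2.53 ± 0.420 (adjusted p = 0.00175). As a share of its pDC mean, Notch3 was at 0.402% in cDC2, where the pDC markers Siglech, Ly6d and Bst2 were at 0.358%, 0.269% and 2.92%. In cDC1 its share was 2.53%, with Siglech, Ly6d and Bst2 at 0.57%, 0.261% and 3.69%. What a few sorted pDC contribute to the cDC1 and cDC2 values cannot be told from a low level in these subsets themselves.

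Notch4 (ENSMUSG00000015468, chr17:34564268-34588503, plus strand, 30 exons) was highest in cDC1 and lowest in pDC. It was at 146, 161 and 107 CPM in cDC1, at 10.1, 17.4 and 6.01 CPM in cDC2 and at 2.21, 1.52 and 0.118 CPM in pDC. No value of a subset reached that of the next. The log2 fold change was -3.62 ± 0.530 (adjusted p = 0.000808) in cDC2 against cDC1, -6.63 ± 0.638 (adjusted p = 1.80e-05) in pDC against cDC1 and -3.01 ± 0.584 (adjusted p = 0.00206) in pDC against cDC2. The pDC mean was 0.93% of the cDC1 mean, beside 0.495% for Xcr1 and 0.669% for Itgae, and the cDC2 mean was 8.09%, beside 5.30% for Xcr1, 3.16% for Itgae and 9.68% for Tlr3. Within cDC2, replicate 2 was the highest for Notch4 and also for 4 of 7 cDC1 identity genes, Xcr1 (64.9 CPM), Itgae (7.67 CPM), Cd8a (24.6 CPM) and Tlr3 (36.4 CPM), while Clec9a and Irf8 were highest in replicate 3 and Batf3 in replicate 1. In pDC, replicate 1 was the highest for Notch4 and for Xcr1 (8.90 CPM), and without it the log2 fold changes were -7.33 against cDC1 and -3.71 against cDC2. The lowest replicates matched less well. In pDC, Notch4 and Itgae (0.353 CPM) were lowest in replicate 3, but Xcr1 (1.37 CPM) and Tlr3 (0.710 CPM) in replicate 2. In cDC2, Notch4 and Cd8a (18.1 CPM) were lowest in replicate 3, but Xcr1 (33.5 CPM), Itgae (3.47 CPM) and Tlr3 (21.9 CPM) in replicate 1. The part of carried-over cDC1 in the cDC2 and pDC values was not tested.

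Notch2 (ENSMUSG00000027878, chr3:98013527-98150361, plus strand, 34 exons) differed least. Its levels were 241, 259 and 208 CPM in cDC1, 275, 282 and 265 CPM in cDC2 and 203, 208 and 167 CPM in pDC. The cDC2 libraries were above all others, and the pDC and cDC1 ranges met. The log2 fold change in pDC against cDC2 was -0.51 ± 0.117 (adjusted p = 0.00564). The differences of 0.22 ± 0.117 in cDC2 against cDC1 (adjusted p = 0.230) and -0.29 ± 0.117 in pDC against cDC1 (adjusted p = 0.0658) did not pass, but each had the same sign in 3 of 3 same-numbered pairs. With the replicate block, which rests on the date code that same-numbered libraries share in the labels, they passed at adjusted p = 0.0322 and 0.00558. Without replicate 3 in all subsets, the pDC against cDC1 difference was -0.31 and passed (adjusted p = 0.00963).

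Since a long transcript collects more reads, levels of different genes were compared only per kilobase of annotated exon. In cDC1, Notch2 made up 54.8% ± 2.70 (SD, n = 3 libraries) of the sum of the 4 receptors and Notch4 42.4% ± 2.36. In cDC2, Notch2 alone made up 92.6% ± 1.82, and Notch4 came next with 4.96% ± 2.33. In pDC the sum was spread over Notch2 (36.0% ± 1.82), Notch1 (34.6% ± 3.66) and Notch3 (29.0% ± 5.62), whose ranges of shares met one another. The order of Notch1 and Notch2 in pDC depends on the length used: with the longest transcript in place of all exon bases, Notch1 had 43.7% and Notch2 31.2%. The sum itself was highest in pDC, at 49.6 ± 3.45 CPM per kb (SD over 3 libraries), then 40.1 ± 6.17 for cDC1 and lowest, 27.5 ± 1.35, for cDC2. The ranges did not overlap, though the highest cDC1 library, at 45.4, came close to the lowest pDC library, at 45.7.

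**Figure D2:**
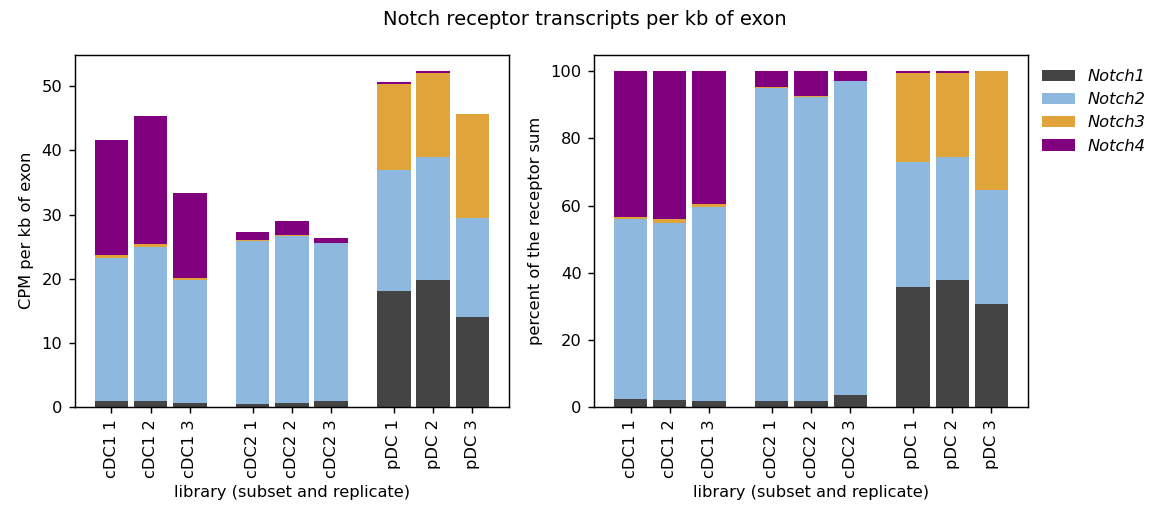
Receptor transcripts in each of the 9 libraries, as stacked CPM per kb of exon (left) and as percent of the receptor sum (right). Notch2 fills 90.5% to 93.7% of the sum in the cDC2 libraries, shares it with Notch4 in cDC1, and with Notch1 and Notch3 in pDC.

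The upstream sequences of Notch1, Notch3 and Notch4 are shown because Notch1 and Notch3 were high in the same subset and Notch4 in another. They are RefSeq windows of GRCm38.p6, cut back to the run that holds no annotated exon, 5′ to 3′ on the gene's own strand: for Notch1 chr2:26503825-26504072, for Notch3 chr17:32166891-32167140 and for Notch4 chr17:34564045-34564267. The Notch1 window lies before a start inside the annotated span of the gene. The TGGGAA core that RBPJ is known to bind would be in capitals on either strand, and none of these windows holds it.
Notch1: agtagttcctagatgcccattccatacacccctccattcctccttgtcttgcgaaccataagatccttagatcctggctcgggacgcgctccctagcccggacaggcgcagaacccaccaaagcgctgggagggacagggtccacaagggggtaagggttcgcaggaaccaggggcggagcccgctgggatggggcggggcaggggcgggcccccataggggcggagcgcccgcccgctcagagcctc
Notch3: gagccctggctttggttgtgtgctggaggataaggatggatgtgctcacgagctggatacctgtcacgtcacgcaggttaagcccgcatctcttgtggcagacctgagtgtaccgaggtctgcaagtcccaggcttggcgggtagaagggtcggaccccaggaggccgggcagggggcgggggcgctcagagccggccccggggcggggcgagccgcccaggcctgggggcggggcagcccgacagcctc
Notch4: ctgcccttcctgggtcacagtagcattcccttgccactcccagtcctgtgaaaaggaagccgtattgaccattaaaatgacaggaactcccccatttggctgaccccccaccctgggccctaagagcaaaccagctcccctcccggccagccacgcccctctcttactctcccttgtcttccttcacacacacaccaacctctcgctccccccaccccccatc
In the full 250 bases before each start site, the Notch1 and Notch3 windows were 66% and 68.8% G and C with 16 and 17 CpG, and the Notch4 window was 58.4% with 4 CpG. The medians over all 32851 promoter windows were 52.4% and 6 CpG.

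Rbpj, the DNA-binding partner of all 4 receptors, fell stepwise from cDC1 over cDC2 to pDC. Rbpj (ENSMUSG00000039191, chr5:53466152-53657362, plus strand, 11 exons) was at 126, 128 and 152 CPM in cDC1, at 65.8, 79.0 and 93.2 CPM in cDC2 and at 35.8, 33.5 and 50.3 CPM in pDC. The 3 ranges were separate, and replicate 3 was the highest within each. The log2 fold change was -0.77 ± 0.181 (adjusted p = 0.0119) in cDC2 against cDC1, -1.76 ± 0.186 (adjusted p = 3.48e-05) in pDC against cDC1 and -0.99 ± 0.183 (adjusted p = 0.00153) in pDC against cDC2. The first of these did not pass without cDC2 replicate 1 (adjusted p = 0.0531). Of the 75-base windows of Rbpj transcripts, 8.91% also occur in transcripts of Rbpj-ps3 and Gm15645, so a small share of its reads could be placed elsewhere.

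Among the 9 genes, 8 had a RefSeq promoter entry, 11 entries in all, and the TGGGAA core lay within 250 bases upstream in 3 entries of 2 genes, Rbpj and Maml2. On either strand 21.6% of all 32851 promoter windows hold these letters, and the longer GTGGGAA, in 5.42% of windows, was in none of the 11. The Rbpj window that carries the core on the gene's strand, 149 bases before the start site, is shown up to the first annotated exon (chr5:53590096-53590213), and the second of 2 Maml2 windows, which lies before an internal start within the gene and carries the core on the other strand 145 bases before it, is chr9:13662210-13662459. The Maml2 window at the gene's own start holds no core. The Rbpj windows also lie before starts inside the gene's span. They overlap each other, so that the same core on the other strand is counted in both. Capitals mark the core, read as TTCCCA where it lies on the other strand.
Rbpj: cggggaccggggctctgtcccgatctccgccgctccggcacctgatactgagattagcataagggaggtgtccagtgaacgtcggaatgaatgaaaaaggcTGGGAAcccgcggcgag
Maml2: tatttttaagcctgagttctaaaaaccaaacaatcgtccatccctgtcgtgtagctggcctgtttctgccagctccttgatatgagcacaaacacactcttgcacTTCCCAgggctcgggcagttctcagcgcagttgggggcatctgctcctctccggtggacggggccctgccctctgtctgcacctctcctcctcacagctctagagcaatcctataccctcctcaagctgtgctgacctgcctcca
These matches are descriptions of the letters, and RBPJ binding was not measured.

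Maml2, a coactivator of the RBPJ complex, was highest in pDC and lowest in cDC2. Maml2 (ENSMUSG00000031925, chr9:13297957-13709388, plus strand) was at 20.4, 27.7 and 15.0 CPM in pDC, at 6.59, 8.01 and 3.79 CPM in cDC1 and at 2.39, 2.77 and 0.850 CPM in cDC2. No ranges overlapped, and replicate 3 was the lowest in every subset. In pDC the level was higher by 1.77 ± 0.413 on the log2 scale than in cDC1 (adjusted p = 0.00553) and by 3.36 ± 0.446 than in cDC2 (adjusted p = 0.000182). In cDC2 against cDC1 it was lower, at -1.59 ± 0.430 (adjusted p = 0.0228), a call that was lost without cDC1 replicate 1, cDC1 replicate 2 or cDC2 replicate 1 (adjusted p = 0.0656, 0.0848 and 0.0551). The direction of Maml2 in pDC was thus opposite to that of Rbpj.

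Hes1, a transcriptional repressor and textbook readout of Notch signalling, was lower in pDC, and its relative Hes6 was higher. Hes1 (ENSMUSG00000022528, chr16:30064384-30067796, plus strand) was at 14.1, 16.9 and 21.2 CPM in cDC1, at 23.2, 31.2 and 31.2 CPM in cDC2 and at 0.787, 0.507 and 1.30 CPM in pDC. Every pDC library was far below every cDC library, with a log2 fold change of -4.35 ± 0.318 (adjusted p = 2.87e-06) against cDC1, a 20.4-fold lower level, and -5.07 ± 0.323 (adjusted p = 1.27e-06) against cDC2. The cDC2 libraries were all above the cDC1 libraries, but the difference of 0.72 ± 0.255 did not pass (adjusted p = 0.0693). It passed in 8 of 19 alternatives, among them the replicate block (adjusted p = 0.0124) and leaving out replicate 3 in all subsets (0.78, adjusted p = 0.0152).

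Hes6 (ENSMUSG00000067071, chr1:91411483-91414038, minus strand), a family member known to inhibit HES1, was at 76.0, 92.0 and 96.4 CPM in pDC. It was at 33.3, 33.9 and 43.2 CPM in cDC1 and at 35.5, 35.4 and 44.6 CPM in cDC2. The cDC subsets overlapped and pDC stood above both. The level in pDC was 2.40-fold that of cDC1 (log2 fold change 1.26 ± 0.155, adjusted p = 0.000101) and 2.29-fold that of cDC2 (1.20 ± 0.155, adjusted p = 0.000156). Between cDC2 and cDC1 the difference was 0.07 ± 0.154 (adjusted p = 0.819).

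Dtx1 gave the largest difference of the 9 genes between the conventional subsets. Dtx1 (ENSMUSG00000029603, chr5:120680202-120711927, minus strand) was at 491, 478 and 446 CPM in cDC2, at 16.8, 8.22 and 9.55 CPM in cDC1 and at 4.90, 2.84 and 0.589 CPM in pDC. No ranges overlapped. The cDC2 level was 40.7-fold that of cDC1 (log2 fold change 5.35 ± 0.526, adjusted p = 7.08e-05), and the log2 fold change in pDC was -7.33 ± 0.585 against cDC2 (adjusted p = 5.58e-06) and -1.98 ± 0.498 against cDC1 (adjusted p = 0.00827). Without pDC replicate 1, the highest of its subset, the last 2 were -8.06 and -2.72. As a share of the cDC2 mean, Dtx1 was at 2.44% in cDC1 and 0.589% in pDC, where the cDC2 marker Clec4a4 was at 2.88% and 0.767%. These means are no higher in share than that of Clec4a4, though the libraries of pDC differ in order, Dtx1 being lowest in replicate 3 and Clec4a4 in replicate 2. A low level in cDC1 or pDC cannot be told apart from a few cDC2 among the sorted cells.

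**Figure D3:**
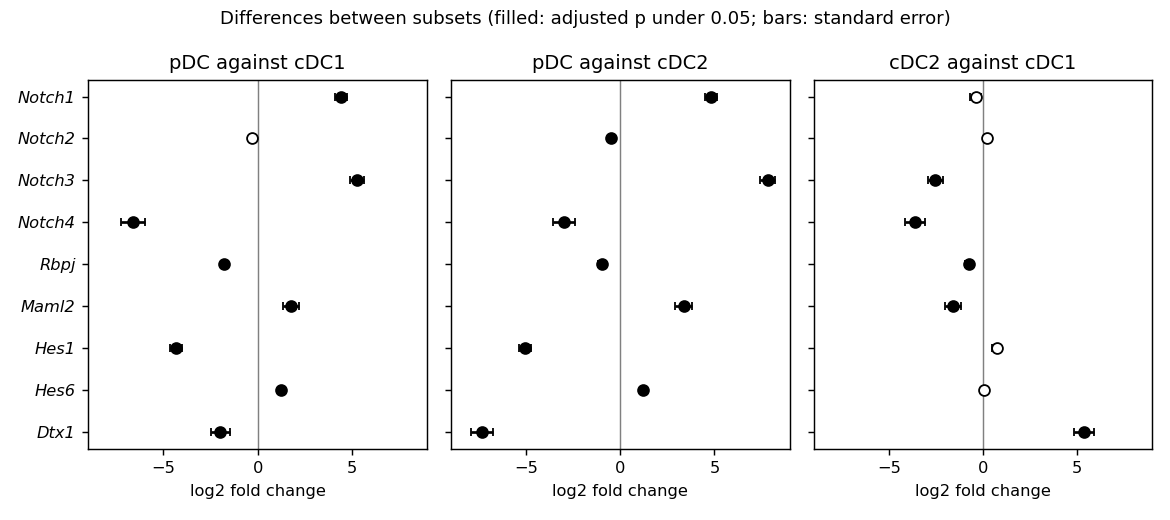
Fitted log2 fold change (x axis) of each of the 9 genes in the 3 comparisons; bars are standard errors, and filled points passed an adjusted p of 0.05. The filled points in pDC against cDC2 run from -7.33 for Dtx1 to 7.82 for Notch3, while 5 of 9 points are filled in cDC2 against cDC1.

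Cell types other than DC were followed by lists of marker genes. Of the B cell genes, Pax5 was at most at 0.405 CPM in any library, while the summed list of 9 genes was 317 to 346 CPM in cDC2, 92.8 to 107 CPM in cDC1 and 24.5 to 25.4 CPM in pDC, carried by Cd22, Fcrl1 and Ms4a1. Its sum was thus highest in the subset where Dtx1 and Notch2 were highest, with the defining Pax5 near 0. Of the endothelial genes, Cdh5 was at 318 to 329 CPM and Kdr at 170 to 180 CPM in pDC, and the summed list of 8 genes was 729 to 751 CPM in pDC, 94.4 to 105 CPM in cDC1 and 132 to 140 CPM in cDC2. Emcn had no read in any library, and Tek and Tie1 were at most at 1.18 and 0.575 CPM. The 9 stromal and mural cell genes summed to 0.801 to 3.03 CPM in all libraries, with Cspg4 at 0 throughout, beside Notch3 at over 100 CPM in pDC. The 9 macrophage genes summed to 503 to 709 CPM in cDC2, 165 to 245 CPM in cDC1 and 59.9 to 231 CPM in pDC, with the cDC2 value led by Adgre1, and their part in the higher Dtx1 and Hes1 of cDC2 was not tested. The 8 T cell genes summed to 157 to 179 CPM in cDC2, 28.3 to 43.4 CPM in cDC1 and 20.7 to 25.9 CPM in pDC, mostly from Tcf7 and Cd5 in cDC2, and the defining Cd3e was at most at 0.943 CPM in any library. The 6 NK cell genes summed to 24.2 to 103 CPM in cDC2, at most 33.4 CPM in cDC1 and at most 43.4 CPM in pDC, highest in replicate 3 of each subset. The part of these other cell types in the values of the 9 genes was not tested.

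The ligands with reads above the floor each had a subset in which they were highest. Of 7 ligand genes listed, 4 were tested, and 2 of them passed between cDC2 and cDC1, 4 between pDC and cDC1 and 3 between pDC and cDC2, where 24.4%, 48.6% and 45.8% of all genes did. Dll4 was at 18.1, 22.1 and 28.6 CPM in pDC, at 2.29, 1.16 and 1.33 CPM in cDC2 and at 0.291, 0.125 and 0.203 CPM in cDC1, with 8, 3 and 3 reads in the last. Dll1, another Delta-like activating ligand, was at 10.5, 10.4 and 5.07 CPM in pDC and at most at 1.30 CPM in the other libraries. In pDC against cDC1 the log2 fold changes were 6.73 ± 0.424 for Dll4 (adjusted p = 1.12e-06) and 5.51 ± 1.02 for Dll1 (adjusted p = 0.00146). Their size is uncertain, since the cDC1 levels lie near the floor, with 8, 5 and 0 reads for Dll1. The Delta-like ligands were thus highest in the subset with the most Notch1 and Notch3.

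Of the Jagged ligands, Jag1 had its highest mean in cDC2 and Jag2 in cDC1. Jag1 was at 23.5, 22.1 and 8.93 CPM in cDC2, at 11.4, 6.34 and 2.64 CPM in cDC1 and at 0.303, 0.203 and 0 CPM in pDC. Its log2 fold change in pDC against cDC2 was -6.53 ± 0.798 (adjusted p = 0.000104), while the cDC2 and cDC1 libraries overlapped and their difference of 1.41 ± 0.567 did not pass (adjusted p = 0.106). It was higher in cDC2 in 3 of 3 same-numbered pairs, and passed with the replicate block (1.52 ± 0.257, adjusted p = 0.00175). Jag2 was at 13.6 to 19.6 CPM in cDC1, at 0.797, 1.86 and 1.33 CPM in cDC2 and at 1.42, 2.53 and 4.18 CPM in pDC. All cDC1 libraries were above the others, with a log2 fold change of -3.62 ± 0.443 (adjusted p = 0.000265) in cDC2 against cDC1. The pDC and cDC2 libraries overlapped, and their difference of 1.01 ± 0.431 did not pass (adjusted p = 0.0837). Jag2 was higher in pDC than in cDC2 in 3 of 3 same-numbered pairs, and passed with the replicate block (0.957 ± 0.312, adjusted p = 0.0281). Dll3 had no read in any library, and Dlk1 and Dlk2 had at most 3 reads in a library.

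The wider pathway list held 81 genes, of which 69 were tested. Of the 60 tested genes other than the 9 above, 38 passed in pDC against cDC1 (20 higher, 18 lower), 35 in pDC against cDC2 (17 higher, 18 lower) and 22 in cDC2 against cDC1 (14 higher, 8 lower). These are 63.3%, 58.3% and 36.7%, to be read beside the 48.6%, 45.8% and 24.4% of all genes tested.

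**Figure D4:**
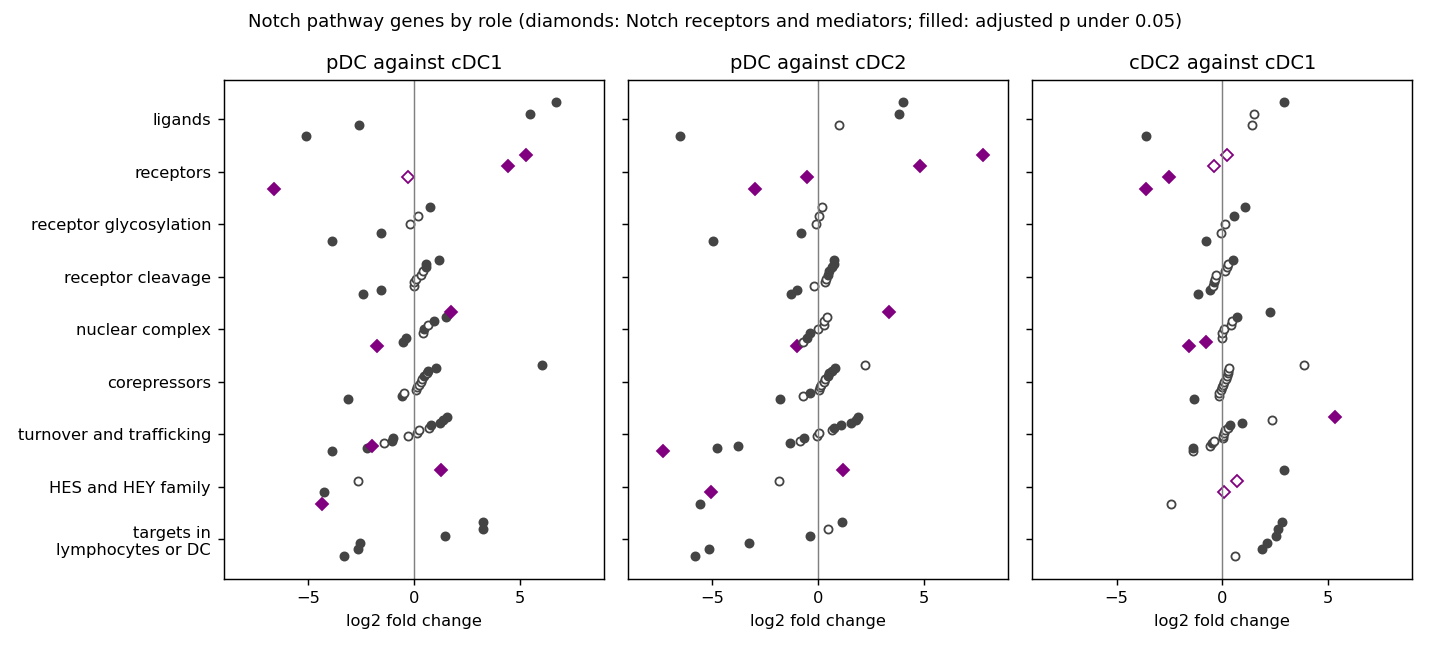
Fitted log2 fold change (x axis) of the 69 tested pathway genes, by role, in the 3 comparisons; diamonds are the receptors and mediators described here, circles the other pathway genes, and filled symbols passed an adjusted p of 0.05. Receptors, ligands and HES genes spread to both sides in pDC, while the corepressors lie close to 0 except for a few, of which 1 of 13 passed in cDC2 against cDC1.

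Of the receptor-modifying enzymes, the Fringe glycosyltransferase Lfng, which changes how receptors respond to Delta-like and Jagged ligands, was lowest in pDC. Its mean was 3.79 CPM in pDC, 57.0 CPM in cDC1 and 121 CPM in cDC2, and the log2 fold change was -4.97 ± 0.214 (adjusted p = 1.56e-07) in pDC against cDC2. Poglut1, the O-glucosyltransferase of Notch, fell in steps from 112 to 65.2 and 37.7 CPM in cDC1, cDC2 and pDC. Of the 5 enzymes, 3 passed in pDC against cDC1 (1 higher, 2 lower), where 48.6% of all genes did (24.3% higher, 24.4% lower). The higher gene was Mfng, another Fringe, with means of 34.7, 50.7 and 58.4 CPM in cDC1, cDC2 and pDC (log2 fold change 0.75 ± 0.124, adjusted p = 0.000724, edgeR). In pDC against cDC2, 2 passed, both lower, and in cDC2 against cDC1, 3 passed (2 higher, 1 lower), beside 45.8% and 24.4% of all genes.

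The proteolytic machinery was detected in every subset. Of 10 cleavage genes, 7 passed in pDC against cDC2 (45.8% of all genes did), 5 of them higher in pDC, 5 passed in pDC against cDC1 (48.6%) and 4 in cDC2 against cDC1 (24.4%). The γ-secretase subunits Aph1c and Aph1b decreased in the same order as Rbpj, though these 2 genes are so alike in sequence that reads can be split between them. The means of Aph1c were 64.6, 29.3 and 12.0 CPM in cDC1, cDC2 and pDC, and those of Aph1b were 24.4, 16.5 and 8.15 CPM. Adam10, the protease of the first ligand-induced cut, rose in the reverse order, with means of 93.9, 133 and 210 CPM, and passed in all 3 comparisons.

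In the nuclear complex, pDC had more of all 3 Mastermind-like genes than cDC1, and the others went the opposite way from Maml2 between cDC2 and cDC1. Maml1 had means of 21.5, 34.8 and 41.7 CPM in cDC1, cDC2 and pDC, and Maml3 of 2.15, 10.4 and 6.26 CPM. In pDC against cDC1 their log2 fold changes were 0.95 ± 0.109 (adjusted p = 6.19e-05) and 1.52 ± 0.344 (adjusted p = 0.00459). Relative to cDC1, cDC2 had more of both, by 0.70 ± 0.109 (adjusted p = 0.00124) and 2.26 ± 0.347 (adjusted p = 0.00109) on the log2 scale, where Maml2 was lower. The acetyltransferase genes Kat2a and Kat2b were lower in pDC than in cDC2, with log2 fold changes of -0.36 ± 0.116 (adjusted p = 0.0275) and -0.51 ± 0.160 (adjusted p = 0.0257). Rbpjl, the RBPJ paralogue that does not join Notch, had a mean of 0 CPM in all 3 subsets.

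Of the 13 corepressor genes, 6 passed in each comparison with pDC (4 higher, 2 lower), and 1 in cDC2 against cDC1. These are 46.2% and 7.69%, beside 48.6% and 45.8% of all genes in the comparisons with pDC and 24.4% in that of cDC2 with cDC1. Ctbp2 fell from a mean of 26.6 CPM in cDC1 to 10.5 CPM in cDC2 and 3.00 CPM in pDC. Tle3, a Groucho-type corepressor of HES proteins, was higher in pDC, at a mean of 220 CPM beside 126 CPM in cDC2 and 107 CPM in cDC1. Tle2 had a mean of 2.30 CPM in pDC and at most 3 reads in each cDC1 library, which makes it at least 15.8-fold higher, taking 3 reads per library as the floor.

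Among the ubiquitin ligases and trafficking genes, 10 of 14 tested passed in pDC against cDC2, 5 in each direction, 9 in pDC against cDC1 and 5 in cDC2 against cDC1, beside 45.8%, 48.6% and 24.4% of all genes. Of the other Deltex genes, Dtx3l differed little, with means of 100.1, 120.6 and 118.0 CPM in cDC1, cDC2 and pDC and no call in any comparison. Dtx2 and Dtx3 were highest in pDC, at means of 120 and 28.8 CPM, and Dtx4 was lower in cDC2 than in cDC1 (log2 fold change -1.37 ± 0.179, adjusted p = 0.000402). Neurl3, a Neuralized-like gene, had the cDC2 > cDC1 > pDC order of Hes1, with means of 178, 94.2 and 6.37 CPM. Neurl1b was lower in pDC than in cDC1, with means of 2.23 and 10.4 CPM (log2 fold change -2.21 ± 0.505, adjusted p = 0.00493). Nrarp, a feedback regulator that is itself a Notch target, had a mean of 2.14 CPM in cDC2 and 0.135 CPM in pDC (log2 fold change -3.78 ± 0.942, adjusted p = 0.00838).

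The rest of the HES and HEY family was at or near the limit of detection. Hes2 had 32, 27 and 14 reads in cDC2, 4, 4 and 0 in cDC1 and 1, 0 and 0 in pDC, so that the level in cDC2 was at least 6.46-fold that in pDC (adjusted p = 0.00189). Hes7 had 37, 20 and 22 reads in cDC1, 9, 10 and 0 in cDC2 and 1, 3 and 0 in pDC, so that the level in cDC1 was at least 8.75-fold that in pDC (adjusted p = 0.0106), while the difference between cDC2 and cDC1 did not pass (adjusted p = 0.0971). Hes5, a classical Notch target in neural cells, had at most 7 reads in a library, Hey1 at most 11, Heyl at most 4, Hey2 at most 2 and Hes3 at most 1. No family member other than Hes1 and Hes6 was above 1.49 CPM in any library.

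Of 8 genes described as Notch targets in lymphocytes or DC, 6 were tested, of which 5 passed as higher in cDC2 in the comparison with cDC1 and 0 as lower, where 24.4% of all genes passed and 12.7% as higher. In pDC, 6 passed against cDC1 (3 higher, 3 lower) and 5 against cDC2 (1 higher, 4 lower), beside 48.6% and 45.8% of all genes. Esam, the adhesion molecule that marks the Notch2-dependent cDC2, was at 77.2, 61.2 and 79.4 CPM in cDC2, at 14.8, 10.3 and 12.6 CPM in cDC1 and at 1.24, 0.203 and 2.42 CPM in pDC. Tcf7, the T cell transcription factor TCF1, was at 132, 118 and 136 CPM in cDC2, at 14.8 to 26.2 CPM in cDC1 and at 3.14 to 3.87 CPM in pDC. Both were separate in all 3 subsets, in the order of Dtx1. Cd7, Il2ra and Ccnd1 departed from this order and were lowest in cDC1. Cd7 was at 684 to 784 CPM in pDC, 491 to 573 CPM in cDC2 and 54.3 to 94.5 CPM in cDC1. The means of Il2ra, the interleukin-2 receptor alpha chain, were 0.63, 2.84 and 6.28 CPM and those of Ccnd1, cyclin D1, were 357, 1311 and 993 CPM in cDC1, cDC2 and pDC. Myc had a log2 fold change of -3.28 ± 0.248 in pDC against cDC2 (adjusted p = 3.87e-06), and its difference of 0.62 ± 0.220 between cDC2 and cDC1 did not pass (adjusted p = 0.0690). Ptcra, the pre-T cell receptor alpha chain used as a pDC marker, did not pass the filter, with 46, 33 and 4 reads in pDC and at most 1 elsewhere.

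The genes nearest in profile to each of the 9 were sought among 12311 genes with a mean of at least 1 CPM over the 9 libraries. The measure was the root mean square (RMS) difference of log2(CPM + 1) about each gene's mean over the same libraries. Rbpj was closest to Stard3nl (0.0927) and Ptcd2 (0.108), and Hes6 to Fam174a (0.0948) and Hmgn3 (0.0997). Notch2 was closest to Fam98b (0.0535), with means of 37.9, 46.9 and 31.6 CPM in cDC1, cDC2 and pDC. The cDC1 pattern of Notch4 was nearest to Pde1b (0.212), at means of 221, 15.4 and 2.39 CPM, and then to Hepacam2 and Fzd1. Notch1 was nearest to Fbxl13 (0.249) and Rai2 (0.336), and Notch3 to Paqr5 (0.301) and Ptprf (0.337), all of them highest in pDC. In cDC1, cDC2 and pDC the means were 0.156, 0.316 and 27.6 CPM for Fbxl13 and 0.0486, 0.0233 and 21.1 CPM for Rai2. Their cDC levels lie near or under the floor, where the pseudocount of 1 shrinks fold differences, so they need not share the fold changes of Notch1. Hes1 was nearest to Gpr82 (0.173) and Sall2 (0.234), both highest in cDC2 and lowest in pDC. Maml2 was nearest to Rhobtb2 (0.199) and Otud7b (0.253). Dtx1 was nearest to Sirpb1a (0.354) and Mmp12 (0.500), at means of 286 and 105.5 CPM in cDC2. The RMS difference depends on a gene's own spread, so its size is not compared between the 9 genes. The RMS of the gene about its own mean was 3.08 for Dtx1, 2.16 for Notch1 and 0.237 for Notch2. The likeness is over 9 libraries of 3 subsets, and it is a description only.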

How the data were processed

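The authors deposited raw read counts per gene for all 9 libraries, made from stranded single-end reads of 75 bases; per the labels, the counts come from STAR, SAMtools and featureCounts on mm10, with no versions. The annotation, the strand setting and the handling of reads with several matches are not given in the sources used here, so reads of overlapping genes may be shared. Libraries were grouped by their labelled subset. In R 4.3.3, filterByExpr of edgeR 4.0.16 (minimum count 10) kept 13819 of 39179 genes, libraries were scaled by TMM, and all 9 were fitted together with subset as the term, and contrasts were tested by quasi-likelihood F-tests in edgeR, with p-values adjusted after Benjamini and Hochberg over all genes tested and a threshold of 0.05. The fit was also run on simulated counts that held no effect shared by same-numbered replicates, and its outcome is not used here. The depth of each library, given with its floor of 3 counts in the text, sets the precision, and floors cover counting error only. Profiles were compared on log2(CPM + 1), that is, a pseudocount of 1.

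Replicate numbers pair the libraries: the labels give each number the same date code in all subsets, and deviations of same-numbered libraries from their subset means correlated at 0.266 to 0.543 over 9 pairs. Alternatives were a replicate block, DESeq2 1.42.0, limma-voom (limma 3.58.1), other scalings and filters, fits of 6 libraries, a minimum log2 fold change of 1, and leaving out each library; leaving out replicate 3 in all subsets was added after seeing the data. The 9 genes and all lists were chosen with earlier results of these data known. Named were all 9 genes, every ligand and HES or HEY gene, per role up to 2 called genes with the largest fold change and a mean of at least 1 CPM in the higher subset, and the genes nearest in profile. Adam10, Ccnd1, Il2ra, Mfng, Dtx2, Dtx3, Dtx3l, Myc, Ptcra, Rbpjl, and Tle3, Nrarp, Poglut1, Neurl3 or Dtx4 in comparisons the rule did not choose, were named after their values were seen. Positions and lengths are from GENCODE M21 (GRCm38) and promoter windows from RefSeq (GRCm38.p6).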

Additional observations from a re-analysis of the deposited data

How the results depend on the processing

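Over 27 differences of the 9 genes and their alternatives, 507 values in all, 485 kept their direction and their side of the threshold, 4 no longer passed and 16 newly passed. The other 2 changed sign, both for Hes6 in cDC2 against cDC1, which passed in none of its alternatives; its main log2 fold change of 0.07 ranged from -0.079 to 0.164 when single libraries were left out. The count of the 9 genes past the threshold in cDC2 against cDC1 was 5, and 3 with at least 10 counts required in every library, where Notch3 and Notch4 are no longer tested. It ranged from 3 to 7 when libraries were left out, with 3 without cDC2 replicate 1, 6 without pDC replicate 2 or pDC replicate 3 and 7 without replicate 3 in all subsets. With the replicate block the counts were 7, 9 and 9 in cDC2 against cDC1, pDC against cDC1 and pDC against cDC2, beside 5, 8 and 9. The newly passing genes under the block were Notch2 in both comparisons with cDC1 and Hes1 in cDC2 against cDC1, and the block changed no other call of the 9 genes. For the pathway list, a required absolute log2 fold change of at least 1 left 17 of 27 genes in cDC2 against cDC1, 34 of 46 in pDC against cDC1 and 26 of 44 in pDC against cDC2. The share of all genes that met both criteria was not determined. Whatever their p-value, 23, 36 and 29 of the 69 tested pathway genes reached this fold change in these comparisons. Of all genes tested, 20.7%, 35.1% and 33.3% did. Depth limits the lowest values most: Notch3 in cDC2 replicate 3 rests on 1 read and Notch4 in pDC replicate 3 on 2 reads, and Dll1 in cDC1 on 8, 5 and 0 reads.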
